A study of Mus musculus with 4 samples.

Results

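The tumour necrosis factor (TNF) superfamily, its ligands and its receptors, was followed in liver and spleen of mice fed a diet with added nucleoprotein. The members are the probes whose gene name in the array files begins with Tnfsf or Tnfrsf, or is one of Tnf, Lta, Ltb, Ltbr, Cd27, Cd40, Cd40lg, Fas and Fasl. This gave 43 gene names with 59 probes, of 27962 gene names and 41174 probes on the array, and the brightest probe stood for each gene. Of the 43 names, 42 belong to the superfamily: 17 ligands and 25 receptors. The remaining name, Tnfsf5ip1, is an older name of Psmg2, a proteasome assembly chaperone. Its log2 ratio was between -0.07 and 0.01 on the 4 arrays. Older names in the files are Tnfrsf7 for Cd27, Tnfsf7 for Cd70 and Tnfrsf19l for Relt.

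The treated group (NP) were male C57BL/6J mice, aged 13 weeks, whose CLEA purified diet carried 1.2% S-nuclegen, a nucleoprotein preparation, for 4 weeks, and that diet held 0.5% nucleic acids. The control group (low NP) were given the purified diet itself, which held 0.03% nucleic acids. Both groups are unmodified mice of 1 strain. Total RNA was pooled per diet and tissue, and no label tells how many mice a pool holds. Each tissue was measured on 2 two-colour Agilent arrays, array 1 with the NP pool labelled in Cy5 and array 2 with it labelled in Cy3. The labels describe the arrays of a tissue as a dye swap but also number their pools 1 and 2, so the same pools on both arrays and separate pools cannot be told apart. They were counted as 1 sample per diet and tissue, so no difference has a replicate check, and no test or p-value is given. The spread between the arrays of a tissue holds dye and array error, and any difference between pools if these were separate. Measured in a tissue means that each of its arrays had the gene's probe well above background in 1 channel or both. Called means a change of 1.5-fold or more, one way, on each array.

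TNF ligands are mostly trimeric membrane proteins, some of which are shed, and they act on receptors of neighbouring cells. Receptors with a death domain can start apoptosis, and others recruit TRAF adaptors that lead to NF-kB. In spleen the family is known for building and maintaining lymphoid tissue: lymphotoxin shapes follicles, BAFF keeps B cells alive, and CD40, OX40, GITR and CD27 co-stimulate lymphocytes. In liver, TNF receptor 1, the lymphotoxin beta receptor, Fas and the TWEAK receptor Fn14 are known on hepatocytes or progenitor cells, while resident macrophages and lymphocytes provide ligands.

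The ratios below rest on 4 called genes and on the neighbours of one of them, so the 250 bases before the start of these genes are shown. They are from RefSeq, assembly GRCm38.p6, each written 5′ to 3′ along its gene's strand. Capitals mark motif matches on either strand.
Ltb, chr17:35194257-35194506, plus strand: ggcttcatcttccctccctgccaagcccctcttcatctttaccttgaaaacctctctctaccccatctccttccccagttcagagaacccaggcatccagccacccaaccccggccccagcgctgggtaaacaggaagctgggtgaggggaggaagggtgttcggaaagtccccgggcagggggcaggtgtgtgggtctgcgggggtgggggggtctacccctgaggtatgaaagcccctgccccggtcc
Tnf, chr17:35202008-35202257, minus strand: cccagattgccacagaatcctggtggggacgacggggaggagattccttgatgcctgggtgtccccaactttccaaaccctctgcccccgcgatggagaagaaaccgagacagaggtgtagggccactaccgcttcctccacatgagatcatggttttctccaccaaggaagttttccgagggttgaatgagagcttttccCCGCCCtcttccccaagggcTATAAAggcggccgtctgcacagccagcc
Lta, chr17:35205352-35205601, minus strand: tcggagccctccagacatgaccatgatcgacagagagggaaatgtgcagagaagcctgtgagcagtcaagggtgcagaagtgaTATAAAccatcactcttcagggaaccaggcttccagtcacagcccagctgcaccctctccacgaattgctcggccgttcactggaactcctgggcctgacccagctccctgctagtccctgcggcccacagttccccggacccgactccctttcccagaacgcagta
Tnfrsf13c, chr15:82224381-82224630, minus strand: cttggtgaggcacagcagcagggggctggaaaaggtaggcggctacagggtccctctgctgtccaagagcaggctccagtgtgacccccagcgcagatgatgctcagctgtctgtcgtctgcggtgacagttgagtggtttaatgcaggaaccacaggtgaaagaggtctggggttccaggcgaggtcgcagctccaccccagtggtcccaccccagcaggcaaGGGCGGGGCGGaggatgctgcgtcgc
Tnfrsf13b, chr11:61126505-61126754, plus strand: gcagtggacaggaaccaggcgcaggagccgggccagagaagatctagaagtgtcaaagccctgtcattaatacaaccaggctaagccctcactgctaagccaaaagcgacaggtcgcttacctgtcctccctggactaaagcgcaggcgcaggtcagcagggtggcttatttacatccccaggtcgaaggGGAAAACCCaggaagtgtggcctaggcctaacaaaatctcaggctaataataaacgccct
Tnfrsf18, chr4:156026072-156026321, plus strand: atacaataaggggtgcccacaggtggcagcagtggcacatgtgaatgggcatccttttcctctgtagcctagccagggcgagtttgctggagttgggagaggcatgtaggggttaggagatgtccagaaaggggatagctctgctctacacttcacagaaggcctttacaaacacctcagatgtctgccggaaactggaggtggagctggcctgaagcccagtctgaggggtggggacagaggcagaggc

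The motifs searched were an NF-kB-like GGGNNTTCC, a PU.1-like GAGGAAGT, a TATA box TATAAA and a GC box GGGCGG. The promoter table held 32 of the superfamily genes. Its promoters of all genes numbered 32851, and the motifs were found in 4.98%, 2.44%, 12.4% and 32.7% of them in the order named. Among the 32 genes the NF-kB-like letters were found for 2, Tnfrsf13b (match starting 60 bases before the start) and Tnfrsf9. The PU.1-like letters were found for 1, Tnfsf18. The TATA box was found for 6, Tnf and Lta among them, with matches starting 29 and 167 bases before the start. The GC box was found for 16, Tnfrsf13c and Tnf among them. A gene counted with a match in any of its promoters, while the shares of all genes are per promoter. Overlapping GC boxes in Tnfrsf13c begin 26 and 21 bases before the start. The windows of Ltb and Tnfrsf18 held none of the 4 motifs. The 4 called genes thus shared no motif of this set. Their GC content was 63.2% for Ltb, 63.2% for Tnfrsf13c, 54% for Tnfrsf13b and 56% for Tnfrsf18, against a median of 52.4% over all promoters (quartiles 45.2% and 61.2%). Tnfrsf10b, Tnfrsf11b, Tnfrsf22, Tnfrsf26, Tnfsf4, Tnfsf9, Tnfsf12, Cd40, Cd40lg and Cd70 had no entry.

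The pools were first set against markers of the tissue on their label. Hepatocyte markers (7 genes) had a log2 summed signal of 20.2 and 19.5 in NP liver and 19.3 and 20.2 in low-NP liver. In spleen their signal was 12.9 and 11.3 in the NP pool and 19.9 and 19.4 in the low-NP pool, and 7 of 7 were called lower in NP spleen. B cell markers (7 genes) had 11.9 and 11.1 in NP liver and 15.1 and 15.3 in low-NP liver, and 5 of 7 were called lower in NP liver. In spleen they had 17.7 and 17.7 in the NP pool and 17.4 and 17.5 in the low-NP pool. T cell markers (8 genes) had 12.0 and 11.3 in NP liver and 13.6 and 14.2 in low-NP liver, with 6 of 8 called lower in NP liver. Exocrine pancreas markers were called lower in the NP pool for 6 of 6 genes in liver and for 6 of 6 in spleen. The low-NP spleen pool thus carried liver markers that the NP spleen pool carried at a far lower level. The low-NP liver pool carried more lymphocyte, granulocyte and erythroid marker signal than the NP liver pool. The part of these markers in the results below was not tested. Every diet ratio rests on a low-NP pool and has no value without it. The comparison of NP spleen with NP liver reads the NP channels. Their levels were still normalized together with the low-NP channels of the same arrays, so they are not free of those pools.

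In liver, 4 members were lower in the NP pool and none was higher. They were Ltb, the lymphotoxin beta chain, and the receptors Tnfrsf13c (BAFF-R), Tnfrsf13b (TACI) and Tnfrsf18 (GITR). Of 35 members measured, 4 were called lower (11.4%), against 3.63% of the 17108 genes measured in liver. The count called higher was 0, against 0.0701%. The ratios here are NP over low NP on the log2 scale, the opposite direction to the value table that the authors deposited. The count depends on background correction, for all genes as well. Without background subtraction 14 members were called lower (7.79% of all genes), and with the scanner software's processed signals 17 were called lower (10.3% of all genes) and 1 higher (1.77%). The same 4 genes were called under each of the 10 alternatives tried. Leaving out 1 array, or the filter on dim probes, cannot undo a call made on both arrays, so these alternatives do not test it. Past 1.5-fold in opposite directions on the arrays were 0.24% of all genes.

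**Figure D1:**
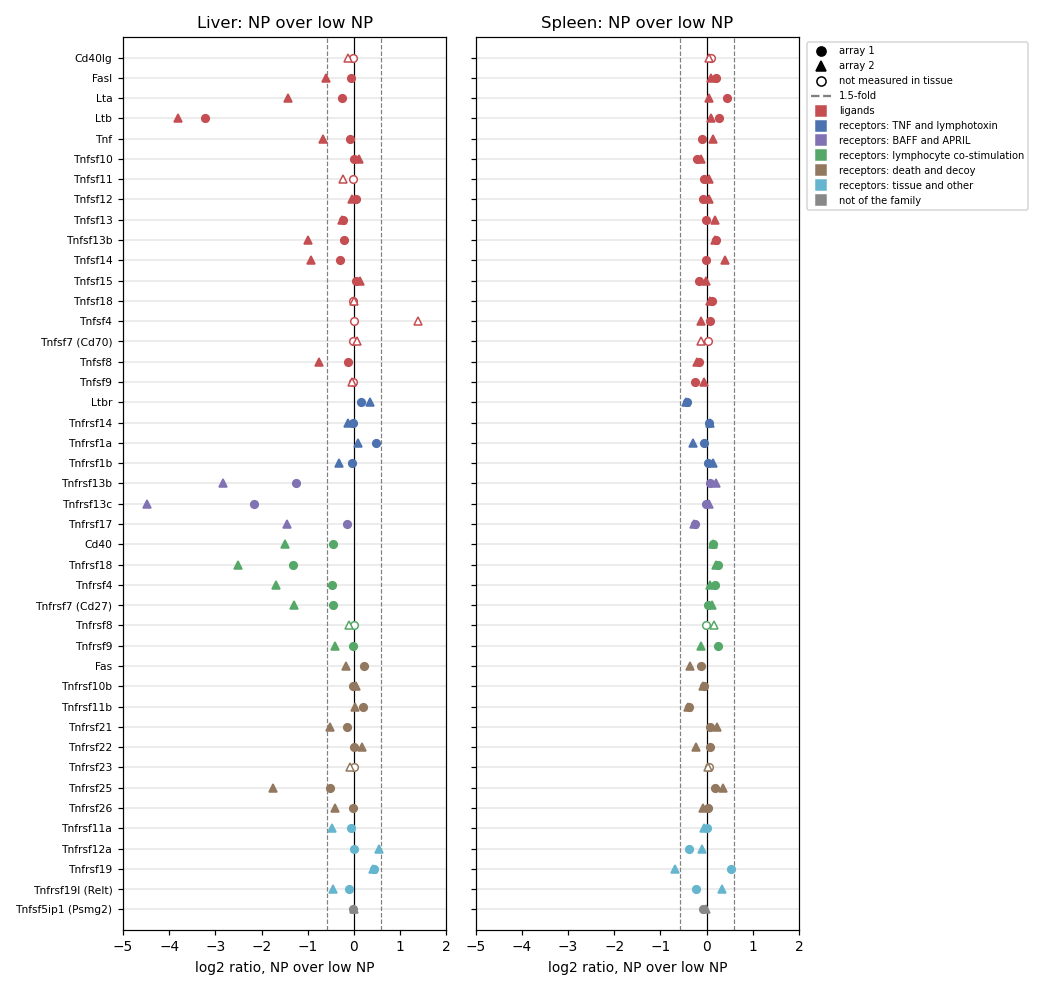
Log2 ratio of NP over low NP (x axis) of the 43 members (rows, coloured by role) in liver and in spleen. Circles are array 1, triangles array 2, open symbols members not measured in that tissue, and dashed lines 1.5-fold. In liver 4 members lie beyond the lower dashed line on both arrays, and in spleen none does.

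Among the ligands, Ltb forms membrane lymphotoxin with Lta and signals through Ltbr. Its log2 signal was 11.65 and 10.70 in NP liver (arrays 1 and 2), against 14.88 and 14.51 in low-NP liver. In spleen it was 16.94 and 16.98 in the NP pool, against 16.68 and 16.88 in the low-NP pool. Both NP liver values thus lay below both low-NP liver values, and the spleen ratios were 0.27 and 0.10. The liver ratio was -3.23 on array 1 and -3.81 on array 2, a mean of -3.52 ± 0.29 (the distance of either array from their mean), or 11.5-fold lower in NP liver. The Ltb probe lies at chr17:33292571-33292630 in mm7, the build of the array's probe positions. Its place in exon or UTR, like that of the other probes, was not determined here.

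Lta, which also acts as a secreted trimer on the TNF receptors, was not well above background in NP liver on either array. Its liver ratio was -0.26 on array 1 and -1.43 on array 2, so only array 2 passed 1.5-fold. The bound on its mean over the arrays was at least 1.80-fold lower in NP liver, which array 1 alone did not reach. Tnf, the founding ligand, had -0.09 and -0.68 and again passed on array 2 alone. Ltb, Tnf and Lta are neighbours whose probes span 6.98 kb of chromosome 17 in mm7. Their mean liver ratios were -3.52, -0.39 and -0.84. Lta was well above background on neither NP liver array and Tnf on 1 of the 2, so how far these neighbours differ from Ltb in the diet ratio is limited by background. Their NP spleen minus NP liver differences were 5.78, 1.19 and 2.85.

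The receptor of lymphotoxin, Ltbr, was 0.16 and 0.36 in liver, not called. Its log2 signal was 13.69 and 13.87 in NP liver, against 13.53 and 13.51 in low-NP liver. Ligand chain and receptor therefore differed in the liver comparison, Ltb being far below 0 and Ltbr above it on both arrays. The TNF receptors Tnfrsf1a (0.48 and 0.08) and Tnfrsf1b (-0.03 and -0.32), and Tnfrsf14 (-0.02 and -0.14), the HVEM receptor of LIGHT, were not called. Another Tnfrsf1b probe had 0.03 and 0.09. LIGHT itself, Tnfsf14, was -0.31 and -0.92.

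The receptors of BAFF and APRIL are carried largely by B cells and plasma cells, and all 3 were below 0 on both liver arrays. Tnfrsf13c, the receptor that BAFF uses for B cell survival, had a log2 signal of 8.91 and 7.61 in NP liver, against 11.08 and 12.08 in low-NP liver. In spleen it was 14.07 and 14.17 in the NP pool, against 14.08 and 14.11 in the low-NP pool. The diets were therefore well apart in liver and nearly the same in spleen. The liver ratio was -2.17 and -4.48, a mean of -3.32 ± 1.15, with a gap between arrays of over 2 log2 units. The probe lies at chr15:82306190-82306249 in mm7.

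Tnfrsf13b, which binds both BAFF and APRIL, had 8.78 and 7.88 in NP liver, against 10.04 and 10.72 in low-NP liver. In spleen it had 12.58 and 12.75 in the NP pool, against 12.51 and 12.54 in the low-NP pool. Its liver ratio was -1.26 and -2.84 (mean -2.05 ± 0.79), 4.14-fold lower, by the probe at chr11:61230555-61230614. The second Tnfrsf13b probe, at chr11:61223024-61228432, gave -0.06 and -0.41 and was not called, so the call rests on 1 of 2 probes. Tnfrsf17 (BCMA), the plasma cell receptor, was not well above background in NP liver. It had -0.15 and -1.46. The bound on its mean over the arrays was at least 1.68-fold lower in NP liver, which array 1 alone did not reach. The ligands of these receptors lay nearer 0 on array 2. Tnfsf13b, which encodes BAFF, had -0.22 and -0.99, and Tnfsf13, which encodes APRIL, had -0.24 and -0.26.

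Of the co-stimulatory receptors, Tnfrsf18, found on regulatory and activated T cells, was called. Its log2 signal was 9.24 and 8.49 in NP liver, against 10.56 and 11.00 in low-NP liver. In spleen it was 13.34 and 13.23 in the NP pool, against 13.09 and 13.02 in the low-NP pool. NP was thus lower in liver and slightly higher in spleen on every array. The liver ratio was -1.32 and -2.51 (mean -1.91 ± 0.59), 3.76-fold lower, by the probe at chr4:155018282-155018341. Its ligand Tnfsf18 was not measured in liver.

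Tnfrsf4 (OX40), whose probe lies 12.2 kb from that of Tnfrsf18, had -0.47 and -1.70 and passed 1.5-fold on array 2 alone. Cd40, through which T cells activate B cells and macrophages, had -0.45 and -1.50, and Cd27, a receptor of naive and memory T cells, had -0.44 and -1.30. These receptors share the direction of Tnfrsf18 but lay inside 1.5-fold on array 1. Tnfrsf9 (4-1BB), an activation-induced receptor, had -0.03 and -0.42. Of their ligands, Cd40lg, Cd70, Tnfsf4 and Tnfsf9 were not measured in liver, and Tnfrsf8 (CD30) was not either. Tnfsf8, the CD30 ligand, had -0.13 and -0.77.

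In all, 11 members passed 1.5-fold lower on liver array 2 but not on array 1, and none did so on array 1 alone. They were Cd40, Fasl, Lta, Tnf, Tnfrsf17, Tnfrsf25, Tnfrsf4, Cd27, Tnfsf13b, Tnfsf14 and Tnfsf8. On array 1 alone 4 members would be called lower (4.1% of all genes), and on array 2 alone 15 (11.3% of all genes). Of all genes, 7.62% passed lower on array 2 only and 0.473% on array 1 only. The nearest to the threshold on its smaller array was Tnfrsf25, a T cell death receptor, at -0.52. Of the called members Tnfrsf13b was nearest, at -1.26, so no member lay between these. The members' median was -0.07 on array 1 and -0.44 on array 2, against 0.01 and -0.04 for all genes. In liver, repeated spots of 1 probe lay closer together than the arrays did. Cd40, printed at 10 places, ran over spots from -0.49 to -0.37 on array 1 and from -1.57 to -1.39 on array 2. Over the 7 members printed this way, the SD of spots on 1 liver array was 0.0132 to 0.0966, and the liver arrays lay 0.29 to 1.16 apart.

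Among the receptors of cell death, Fas, which triggers apoptosis in hepatocytes, was 0.23 and -0.16 in liver. Fasl, its ligand on cytotoxic cells, was -0.07 and -0.60 by the brighter probe and -0.01 and -0.04 by the other. Tnfrsf10b, the mouse TRAIL receptor (-0.01 and 0.06), and Tnfsf10, which encodes TRAIL (0.00 and 0.11), stayed close to 0. Neither death ligand pathway had a called gene in liver. Tnfrsf21 (DR6) had -0.15 and -0.52. The TRAIL decoy receptor Tnfrsf22 (0.01 and 0.18) and Tnfrsf26 of the same gene cluster (-0.02 and -0.40) were not called, and Tnfrsf23, another decoy, was not measured. Tnfrsf11b, osteoprotegerin, the soluble decoy for RANKL, had 0.19 and 0.02.

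The receptors of tissue cells were not called in liver. Tnfrsf12a (Fn14), the TWEAK receptor induced in injured liver, had 0.01 and 0.53, while its ligand Tnfsf12 had 0.04 and -0.04. Tnfrsf11a (RANK) had -0.06 and -0.48 and its ligand Tnfsf11 was not measured. Tnfrsf19 (TROY) had 0.45 and 0.41, the highest mean liver ratio of the measured members at 0.43, and Relt had -0.10 and -0.44. Tnfsf15 (TL1A), the ligand of Tnfrsf25, had 0.04 and 0.13. Over the 35 measured members, 25 had a mean ratio below 0 and 10 above, against 8525 below and 8583 above among all genes.

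In spleen no member was called in either direction. The count was 0 of 39 measured members, against 6.33% of 18570 genes called lower and 0.0431% called higher. The members' mean ratios ran from -0.43 to 0.27 with a median of 0.02, and 20 were above 0 and 19 below. The lowest was Ltbr, with -0.42 and -0.45. Its log2 signal was 11.98 and 11.69 in NP spleen, against 12.40 and 12.14 in low-NP spleen. Tnfrsf11b followed with -0.39 and -0.39, and it alone was called lower with the scanner software's processed signals. Both arrays agreed closely on these receptors, which also had higher levels in NP liver than in NP spleen. The highest was Tnfrsf25, with 0.18 and 0.36. Tnfrsf19 had 0.52 on array 1 and -0.68 on array 2, so its arrays went in opposite directions, and without array 1 it would be the 1 member called.

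**Figure D2:**
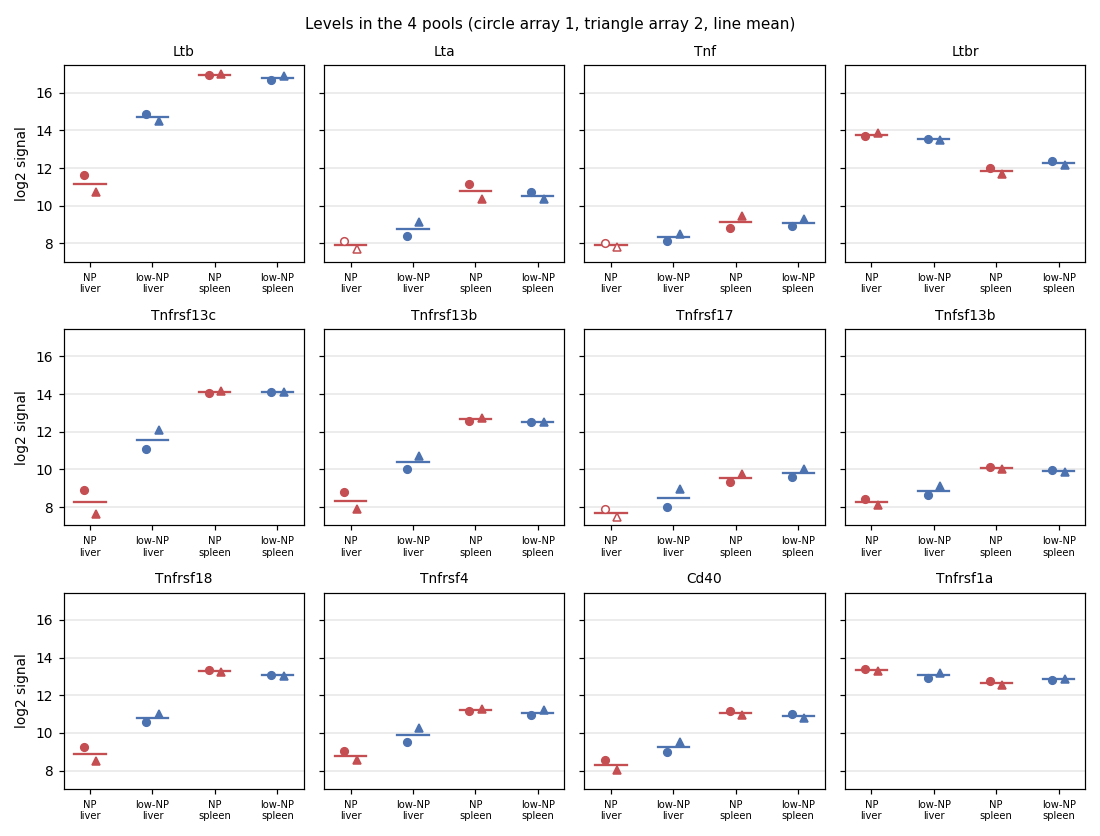
Log2 normalized signal (y axis) of 12 members in the 4 pools, NP in red and low NP in blue. Circles are array 1, triangles array 2, the line their mean, and open symbols mark a pool not well above background on both arrays. Ltb, Tnfrsf13c, Tnfrsf13b and Tnfrsf18 are lower in NP liver than in low-NP liver on both arrays, and their spleen pools nearly coincide.

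Between tissues, all 3 BAFF and APRIL receptors, 4 of 5 measured co-stimulatory receptors, 6 of 14 measured ligands and Tnfrsf25 were higher in NP spleen, and Ltbr, Tnfrsf12a and Tnfrsf11b were higher in NP liver. A member was called here at 2-fold in both dyes, NP spleen over NP liver. Of 38 members measured, 14 were higher in NP spleen, against 15.1% of 18555 genes, and 3 were lower in NP spleen, against 13.9%. The differences on the log2 scale were 5.86 for Tnfrsf13c, 5.78 for Ltb, 4.42 for Tnfrsf18 and 4.33 for Tnfrsf13b, so the 4 members called in liver had the 4 largest tissue differences. Then came Tnfrsf25 at 3.11, Lta at 2.85, Cd40 at 2.76, Tnfrsf4 at 2.42, Cd27 at 2.29 and Tnfsf14 at 2.26. As Lta was not well above background in NP liver, it had a bound of at least 7.21-fold higher in NP spleen. Tnfrsf17 had a bound of at least 3.49-fold, and both bounds rest on means over the arrays. Tnfsf13, Tnfsf13b and Fasl had 1.88, 1.83 and 1.34. Second probes gave smaller differences, at 0.16 for Tnfsf13b, 0.36 for Fasl, 0.71 for Tnfrsf25 and 1.63 for Tnfrsf13b. With the median over measured probes of a gene, Fasl and Tnfsf13b were not called. The members higher in NP liver were Ltbr at -1.94, Tnfrsf12a at -1.68 and Tnfrsf11b at -1.53. With the low-NP pools in place of the NP pools, the differences were smaller, at 2.51 for Tnfrsf13c, 2.08 for Ltb, 2.28 for Tnfrsf18 and 2.14 for Tnfrsf13b. Fasl, Tnfsf13b, Tnfrsf4 and Tnfrsf11b were then no longer called, and 13 members were called in all. Fasl and Tnfrsf17 were not called when each channel was centred on its median. In pooled tissue RNA, fewer cells of a type and less RNA per cell cannot be told apart.

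Neighbouring genes of the family did not share a tissue pattern everywhere. Cd27, Ltbr and Tnfrsf1a lie within 129 kb of chromosome 6 by their probes, and their NP spleen minus NP liver differences were 2.29, -1.94 and -0.68. Tnfsf13 and Tnfsf12 lie within 3.21 kb on chromosome 11 and had 1.88 and -0.53. Tnfrsf4 and Tnfrsf18, on chromosome 4, were both higher in spleen, at 2.42 and 4.42. In the whole family, 20 members fell into 8 such groups with neighbours no more than 100 kb apart.

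The liver diet ratio of a member went with its tissue difference, and so did that of genes in general. The comparisons share the NP liver channels, so they are given side by side and not as a correlation. Of the 14 members higher in NP spleen, 4 were called lower in NP liver than in low-NP liver (28.6%), against 21.9% of the 2767 genes of that kind. Of the 18 members not called between tissues, none was, against 0.121% of such genes. The calls among members were thus found where calls among all genes were found, in genes of higher level in spleen. In spleen, 43.4% of the genes higher in NP liver were called lower in NP spleen, while 0 of the 3 members of that kind were.

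**Figure D3:**
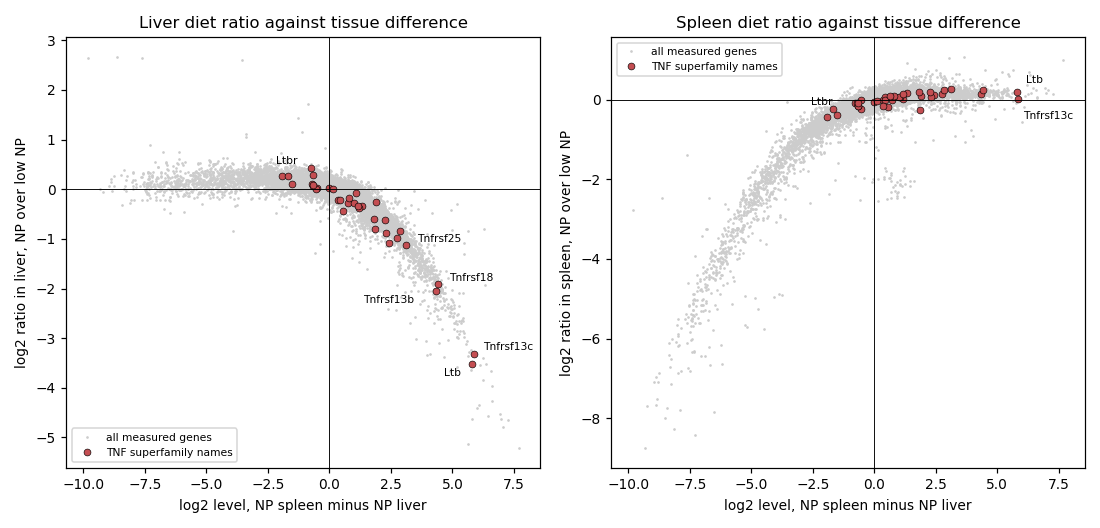
Log2 ratio of NP over low NP in liver (left) and in spleen (right) on the y axis, against the log2 level of NP spleen minus NP liver on the x axis. Grey points are measured genes and red points TNF superfamily names. The 2 axes of each panel share an NP pool, and the members lie within the band of all genes, with Ltb and Tnfrsf13c at its lower end in liver.

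The same can be put on a linear scale, as the excess of low-NP liver over NP liver in percent of the gap between NP spleen and NP liver. It was 19.3% for Ltb, 15.8% for Tnfrsf13c, 16.4% for Tnfrsf13b and 13.5% for Tnfrsf18. Of the other members with 4-fold or more in NP spleen over NP liver, it was 12.8% for Lta, 14.1% for Tnfsf14, 15.7% for Tnfrsf25, 16.7% for Cd40, 21.4% for Cd27 and 25.6% for Tnfrsf4. The 10 members thus lay between 12.8% and 25.6% with a median of 16.1%, although their log2 ratios in liver ran from -0.62 to -3.52. These shares use levels averaged over the arrays, and none was taken per array. The liver ratios of single arrays lay far apart for Lta (-0.26 and -1.43) and Cd40 (-0.45 and -1.50). The range over members therefore does not show how closely the arrays place a member. The 218 genes with 16-fold or more in NP spleen over NP liver had a median of 14.5% (quartiles 12.9% and 17.3%). Of the marker lists, only genes with 4-fold or more in NP spleen over NP liver were used. These were 6 of 7 B cell, 6 of 8 T cell, 3 of 6 stromal, 3 of 7 macrophage, 3 of 6 erythroid and 5 of 6 granulocyte markers. The macrophage markers Clec4f and Vsig4, left out, were higher in NP liver, at -4.86 and -3.33. The median was 15.6% for B cell markers and 18.1% for T cell markers, against 11.0% for stromal, 8.68% for macrophage, 6.80% for erythroid and 2.31% for granulocyte markers. The ranges were 9.48% to 14.5% for stromal, 3.14% to 14.1% for macrophage and 0.653% to 54.7% for erythroid markers, each over 3 genes. By these averaged levels, the members' range overlapped with B cell, T cell, stromal, macrophage and erythroid markers. It lay above the 5 granulocyte markers, of which the highest was 3.58%. In the other direction, the 578 genes with 16-fold or more in NP liver over NP spleen had an excess in low-NP spleen with a median of 17.8% of the NP gap. What sets these shares was not tested.

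**Figure D4:**
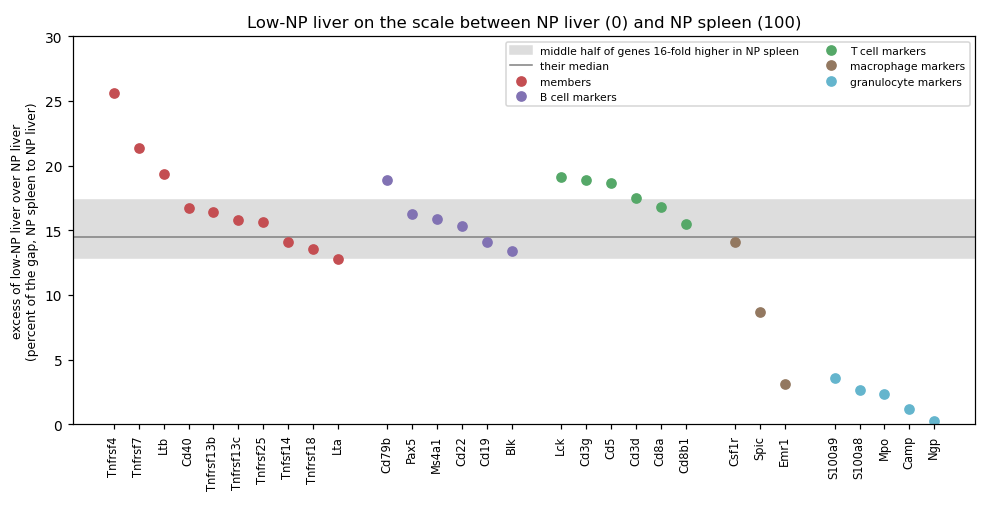
Excess of low-NP liver over NP liver (y axis, percent of the gap between NP spleen and NP liver, linear signal) for genes with 4-fold or more in NP spleen over NP liver. Each point is a gene, coloured by list, and the grey band is the range between quartiles of the 218 genes with 16-fold or more. The 10 members lie between 12.8% and 25.6%, and granulocyte markers lie at 3.58% or lower. Levels were averaged over the arrays.

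Of 45 measured genes downstream of the receptors, 10 were called lower in NP liver, against 3.63% of all genes, and 0 higher. None of 46 was called in spleen, against 6.33% lower among all genes. The lymphoid tissue genes that lymphotoxin signalling is known to induce gave 5 of 7. They were Ccl19 (-2.59 and -3.39), which attracts T cells, Cxcl13 (-1.33 and -2.50), which attracts B cells, the adhesion molecule Vcam1 (-2.12 and -2.51), and Cr2 (-1.10 and -3.07) and Fcer2a (-0.64 and -2.002), which are B cell and follicular dendritic cell receptors. These 5 genes were 3.44 to 5.24 log2 units higher in NP spleen than in NP liver.

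Of the NF-kB list, 4 of 20 were called lower in NP liver. Relb (-1.30 and -1.95) and Nfkb2 (-0.77 and -1.16) form the pair of the non-canonical pathway, which Ltbr, BAFF-R and CD40 activate. Nfkbie (-0.66 and -1.40) and Tnfaip3 (-0.59 and -1.63) are inhibitors induced by NF-kB. Of the TRAF and adaptor list, 1 of 18 was called, Traf1 (-1.52 and -3.23), an inducible adaptor of lymphocytes. The kinase of the non-canonical pathway, Map3k14, had -0.52 and -1.09 and passed on array 2 alone. The adaptors Tradd, Fadd and Ripk1, which death receptors use, lay between -0.14 and 0.19 on both arrays. All 10 called pathway genes were also called higher in NP spleen than in NP liver, a class of which 21.9% of all genes were called lower in NP liver.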

How the data were processed

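Two-colour Agilent arrays (4 on 1 slide) measured pooled liver and spleen RNA of mice on NP and low-NP diets. The deposited scanner files give spot intensity as mean signal and median background, and processed signals, made with Agilent Feature Extraction 9.5.3.1, per the submitters' processing notes. The log10 ratios in these files are Cy5 over Cy3, per the file headers. The value table the authors deposited holds log10 ratios running low NP over NP; its making is not given in the labels or headers. Its columns correlate with the scanner ratio at -0.992, 0.990, -0.989 and 0.998 over features, and its column medians were 0.03 and -0.07 (liver) and -0.01 and -0.04 (spleen), so it is not centred.

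In limma 3.58.1 (R 4.3.3), intensities were background-corrected (normexp, offset 50) and normalized by loess within arrays; levels used Aquantile. Control spots (1639 of 45018) had weight 0, and 109 to 180 outlier spots per array were left out. Spots of a probe were averaged, and log2 ratios, computed from the deposited intensity values, were turned to NP over low NP. The brightest probe stood for its gene. Where a channel was not well above background, a bound was taken: the brighter pool's level over the dimmest well-measured signal, or over the probe's own where that was higher. Levels in a bound were means over the arrays, so a single array can give a smaller fold. The labels number the pools 1 and 2 in step with the dyes, so each tissue was taken as 1 replicate. Well above background were 58.6% to 65.0% of probes in the liver channels, 93.1% and 94.7% on spleen array 1 and 64.0% and 67.5% on spleen array 2; 4 arrays limit the precision.

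All members are named; values per array are given for members called in either diet comparison, their partners and called pathway genes. Members and gene lists were chosen with earlier results of these data known. Gene names were matched to RefSeq (GRCm38.p6), 42 by accession and 1 by symbol. The calling rule was tried on simulated signals, with changes in brighter probes only and equal noise on both arrays. It was not tried on dimmer probes or on a gap like that between the liver arrays. Other software was Python 3.11.15, numpy 2.4.6, pandas 2.3.3 and matplotlib 3.10.9.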

Additional observations from a re-analysis of the deposited data

Results flagged for a closer look

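Of 35 members measured in both tissues, 19 had a ratio of NP over low NP of one sign on both liver arrays and of the opposite sign on both spleen arrays. Among all 16616 genes measured in both tissues the share was 32.3%, against 54.3% of the members. The difference between tissues was not tested. Of these members, 13 were lower in NP liver and slightly higher in NP spleen (37.1%, against 13.8% of all genes). The mean log2 ratio in liver was -3.52 for Ltb, -2.05 for Tnfrsf13b, -1.91 for Tnfrsf18, -1.13 for Tnfrsf25, -1.08 for Tnfrsf4, -0.97 for Cd40, -0.87 for Cd27 (Tnfrsf7), -0.84 for Lta, -0.60 for Tnfsf13b, -0.33 for Fasl, -0.33 for Tnfrsf21, -0.18 for Tnfrsf1b and -0.079 for Tnfrsf14. In spleen the same members lay between 0.07 and 0.27. Another measured probe of Tnfrsf1b had the opposite signs, with 0.03 and 0.09 in liver and -0.12 and -0.10 in spleen. The other 6 of the 19 members were higher in NP liver and lower in NP spleen (17.1%, against 18.5%). Their liver ratio was 0.28 for Tnfrsf1a, 0.27 for Tnfrsf12a, 0.26 for Ltbr, 0.10 for Tnfrsf11b, 0.086 for Tnfsf15 and 0.058 for Tnfsf10. In spleen they lay between -0.43 and -0.08. Some of these signs rest on a very small value on 1 array. Liver array 1 gave 0.0012 for Tnfsf10 and 0.011 for Tnfrsf12a, and liver array 2 gave 0.016 for Tnfrsf11b. Spleen array 2 gave -0.0077 for Tnfsf15. Among the 13, Tnfrsf14 had -0.02 and Tnfrsf1b -0.03 on liver array 1. Ltb, Tnfrsf13b and Tnfrsf18 are the only ones of the 19 that were called in a tissue.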

How the results depend on the processing

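In liver, 4 members were called. Median centring, both filters on dim probes, the median over probes and a 2-fold threshold each gave 4. Without background subtraction the count was 14, with the scanner software's processed signals or the deposited values it was 18 each, and leaving out 1 array it was 4 to 15. Over the 10 alternatives, Ltb lay between -3.81 and -3.23, Tnfrsf13c between -5.86 and -2.17, Tnfrsf13b between -4.30 and -1.14 and Tnfrsf18 between -2.81 and -1.32. In spleen the count of 0 became 1 with processed signals and with the deposited values (Tnfrsf11b, lower), and 0 to 1 leaving out 1 array. Between tissues, 17 members were called, 26 with processed signals, 9 at 4-fold, and 20 to 24 leaving out 1 array. No called value changed sign, though leaving out 1 array, a threshold or a filter on dim probes could not change it. Of the members' values recomputed, 878 moved by less than the SD of the arrays and 222 moved further. Thresholds and filters leave a value as it is, and leaving out 1 array always moves it by less than that SD. Those alternatives could only add to the 878, so that count does not measure how stable the values are. No paired analysis was possible because each array is itself a ratio of the 2 diets and the result comes from no test. The members not well above background have only bounds, and pools measure no variation between mice.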
